A study of Drosophila melanogaster with 60 samples.

Results

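Transcript abundance was compared between male and female wild type pupae of the fruit fly Drosophila melanogaster at 48 hours (hr) after puparium formation (APF), a stage at which the adult body is being built inside the pupal case. The comparison rests on 6 of the 60 arrays of the series, 3 of males and 3 of females, taken by their titles. Both groups were whole bodies of the Canton S strain, collected as white prepupae, aged for 48 hr and frozen, and each RNA sample came from about 30 pooled pupae. The sources used here do not say that replicates came from separate cultures, so the spread between replicates may be partly technical. Unless stated otherwise, standard errors and p-values rest on the spread within groups over all 60 arrays, not on these 6 arrays alone. Each sample was hybridized on a 2-colour oligonucleotide array against one common reference, RNA of Canton S males and females of all pupal stages. A value is therefore log2(sample/reference) of a probe, and the sex difference is the male mean minus the female mean on that scale.

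For comparison, the same difference was taken in tud progeny at 48 hr, 3 male and 3 female arrays, and in wild type pupae at 0, 24, 72 and 96 hr, 24 arrays. The tud progeny were offspring of tud1 bw1 sp1 mothers and of fathers of a y, w stock that carried P[w+cM UBI-GFP] together with ID-1 P [FRT(w hs)]101, and their daughters, but not their sons, showed GFP. Embryos of tudor mutant mothers form no germ cells, so the tud progeny have the soma of each sex without sperm-forming or egg-forming cells. They differ from wild type in genetic background as well as in the germline, and the effects of these cannot be told apart here. Of the 3 tud progeny female arrays at 48 hr, replicate 1 carries the characteristics of the reference in its labels and replicate 2 gives another hour; both were kept by their titles.

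Sex in Drosophila is set in each somatic cell by Sex lethal, an RNA-binding protein that is active in females and directs splicing of transformer. In males the dosage compensation complex, with its noncoding RNAs roX1 and roX2, raises transcription of the single X chromosome. The testis already holds dividing germ cells, spermatocytes and spermatids at the pupal stage, and spermatocytes transcribe many genes used nowhere else, among them paralogues of general tubulins, mitochondrial proteins and proteasome subunits. The pupal ovary, in contrast, has not yet made yolk-filled or shelled eggs. In whole bodies, a lower value can mean fewer cells of a type or less RNA per cell, and the data cannot separate these.

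The table held 15776 elements, of which 32 were control elements. Of the other 15744 probes, 9054 had a value on at least 1 of the 6 arrays and 3493 on all 6. A probe was tested if each sex had at least 2 values, which left 5484 probes. The male arrays held 7302, 6461 and 7657 values and the female arrays 5691, 4664 and 6985. Their medians were 0.04, 0.05 and 0.04 in males and 0.15, 0.17 and 0.19 in females. Correlation over the probes shared by an array pair ranged between 0.914 and 0.949 among males, between 0.853 and 0.905 among females, and between 0.582 and 0.681 for a male with a female array. A missing value was a spot too weak in both channels or discarded, and a spot was kept if only one channel was bright. A strongly negative value can thus come from a sample channel close to background, and the size of a difference that rests on such values is not firm.

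The direction of the ratio and the sex of the samples were checked with roX1 (DAC007K18), the male-specific RNA of the dosage compensation complex, since the labels and the methods give opposite dyes. roX1 had log2 ratios of 1.64, 1.498 and 1.55 in males and -4.08, -3.71 and -3.44 in females. All male values thus lay far above all female values, and a higher value was read as more RNA in the sample. On the tud progeny arrays roX1 was at 1.92, 1.76 and 1.29 in males and at -5.92, -6.56 and -6.13 in females. One array stood apart there: on tud progeny male replicate 1 many testis genes lay near -3, while they lay between about -4 and -8 on tud progeny male replicates 2 and 3. The counts and the genes compared with tud progeny males are therefore also given without that array.

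Of the 5484 probes tested, 1266 (23.1%) differed between males and females at a Benjamini-Hochberg adjusted p under 0.15 in limma. The level was taken over from the methods, where it applied to q values; with q values in the manner of Storey 2601 probes passed, 655 higher and 1946 lower in males. By adjusted p, in males 459 probes (8.37% of those tested) were higher and 807 (14.7%) were lower, and 1488 probes had an unadjusted p under 0.05. The balance between directions depended on the scaling, since the median of all differences was -0.27. With each array centred on its own median, 511 probes were higher and 290 lower, and 747 probes were past the threshold under both scalings, all with the same sign. Leaving out an array lowered the count to between 722 and 991. It was 840 without male replicate 1, 773 without male replicate 3, 822 without female replicate 2 and 722 without female replicate 3.

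The differences toward males were much larger than those toward females. Among the probes higher in males the median difference was 1.67 (quartiles 0.96 and 2.74), and among those lower in males it was -0.63 (quartiles -0.78 and -0.51). A difference of more than 1 on the log2 scale, which is a doubling, was reached by 339 probes higher in males and by 79 lower in males, and a difference of more than 2 by 192 and by 3. A further 53 probes exceeded 4 toward males. The extremes were 9.37 and -2.87. Of the 459 probes higher in males, 111 had a female mean under -2. Of the 807 lower in males, 10 had a male mean under -2. Sizes that rest on such low values are not firm, and more of them lie toward males. Regardless of the test, all male values lay above all female values for 702 probes (12.8%) and below them for 2131 (38.9%), which is the background for any single gene whose sexes did not overlap.

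**Figure D1:**
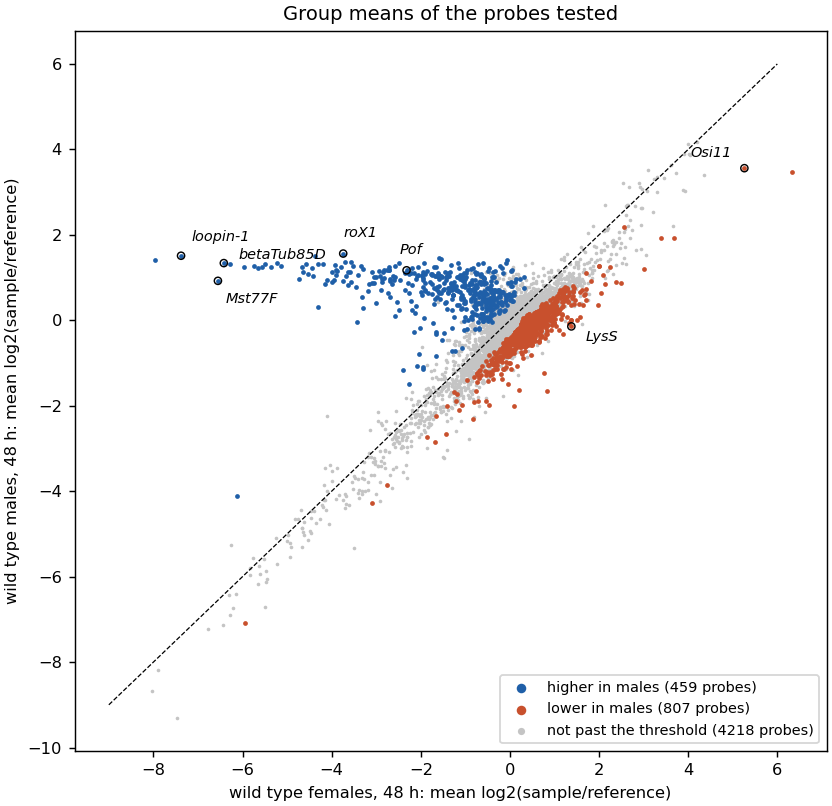
Mean log2(sample/reference) of wild type males (vertical axis) against wild type females (horizontal axis) at 48 hr APF, 1 point per probe tested, blue where higher and red where lower in males at the threshold. The blue points run far to the left at male values near 1, and the red points lie in a narrow band under the dashed line of equal values.

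Gene names could be given only to probes that the study's published gene lists name, 1912 of the 5484 tested (34.9%). These lists were chosen on the same samples, in part because genes differed between the sexes or between wild type and tud progeny, so counts over named genes are not independent evidence of direction. Among the 386 tested probes named only through the list of genes expressed in the male germline, 247 were higher in males and 0 lower. Among the 196 named only through the female germline list, 0 were higher and 59 lower. The 1330 probes named by other lists had 125 higher and 208 lower, and the 3572 probes with no name had 87 higher and 540 lower.

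Counts of list members here and below stand against 8.37% higher and 14.7% lower in males over all probes tested. Among tested probes named only through the male germline list, 64% were higher and 0% lower. For members named only that way, the direction was largely set by the naming and is a description only. Of 6 tested probes for dosage compensation and sex determination, 2 were higher in males, 3 were lower and 1 did not pass. Their median difference was 0.04 against -0.27 over all probes. roX1 was higher in males by 5.30 ± 0.34 (SE, n = 3 each), with a limma adjusted p of 7.44e-15. The direction of the ratio had been read from roX1, so the sign of this difference is not a separate result. Pof (DAC027A15), which codes for a protein that binds one of the autosomes, had values of 1.21, 1.19 and 1.11 in males and -3.01, -2.01 and -1.94 in females. It was higher in males by 3.49 ± 0.29 (SE, limma adjusted p = 1.35e-12). The sexes did not overlap for either gene.

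Sex lethal (Sxl) was measured by a pair of probes. The first (DAC006G03) stood at 0.00, 0.15 and 0.15 in males and at 0.81, 1.15 and 0.97 in females, a difference of -0.88 ± 0.30 (SE, limma adjusted p = 0.0472). The second (DAC006G05) had only 2 male values, -0.36 and -0.66, against 0.64, 0.80 and 0.53 in females, a difference of -1.17 ± 0.32 (SE, limma adjusted p = 0.0186). Sxl transcript was thus lower in males by both probes. The third lower member, named here after its value was seen, was fl(2)d, a splicing cofactor of Sxl, at -1.15 (limma adjusted p = 0.0551). roX2, the other noncoding RNA, had 1.07 and 1.12 in males and 0.21 and 0.07 in females, with no value on replicate 2 of either sex. Its difference of 0.96 ± 0.92 (SE, limma adjusted p = 0.500) did not pass in the fit over all arrays, and passed when only the 6 arrays were fitted (adjusted p = 0.0316). Transformer had no value on these arrays.

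Genes for proteins of the sperm itself were higher in males as a group. All 16 tested probes for sperm structure and spermatid differentiation were higher in males. The share was 8.37% over all probes tested and 64% over those named only through the male germline list. Their median difference was 4.11, with a range of 0.72 to 7.76, and 10 of the 16 were named only through the male germline list. The testis-specific beta-tubulin betaTub85D (DAC024P20), which builds the sperm tail axoneme, had values of 1.35, 1.38 and 1.29 in males and -7.08, -5.69 and -6.49 in females. It was higher in males by 7.76 ± 0.94 (SE, limma adjusted p = 4.44e-08). Mst77F (DAC023J23), a chromatin protein of the sperm head, stood at 0.94, 0.83 and 1.00 in males and at -6.76, -6.15 and -6.75 in females, a difference of 7.48 ± 0.73 (SE, limma adjusted p = 2.22e-10). Male values of both genes lay within about 0.2 of each other, and the female values varied more.

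Genes for proteins of the sperm tail followed the same pattern. Mst87F (DAC019M02) had 0.64, 1.08 and 1.10 in males and -4.47, -3.57 and -4.27 in females, a difference of 5.04 ± 0.45 (SE). Mst84Db was higher in males by 4.72 ± 0.47 and Mst98Ca by 6.56 ± 0.78 (SE). Sdic2, for an intermediate chain of sperm dynein, was at 1.01, 1.07 and 0.95 in males and at -1.08, -0.97 and -1.11 in females. Its difference of 2.06 ± 0.15 (SE, limma adjusted p = 8.76e-14) was smaller and had a smaller error. Sdic genes are near-identical copies, so this probe may read several of them.

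The leucyl aminopeptidases, abundant proteins of insect sperm, held the largest difference of all probes. All 8 tested probes were higher in males, with a median of 6.02 and a range of 0.92 to 9.37, and 6 of them were named only through the male germline list. S-Lap1 (DAC029A06) had 1.41, 1.53 and 1.28 in males and -8.78 and -7.16 in females, with no value on female replicate 2. The difference was 9.37 ± 0.93 (SE, limma adjusted p = 6.57e-10). loopin-1 (DAC026E06), named for its place in the mitochondrial derivative of the sperm tail, stood at 1.44, 1.65 and 1.44 in males and at -6.87, -7.56 and -7.71 in females, a difference of 8.89 ± 1.06 (SE, limma adjusted p = 5.19e-08). S-Lap4 and S-Lap2 were higher in males by 6.41 ± 0.70 and 5.63 ± 0.80 (SE). The count of higher members was 5 without female replicate 1, 5 without female replicate 2 and 3 without female replicate 3, since fewer of the 8 then had enough female values to be tested (5, 6 and 3). The family's members are similar in sequence and may share signal.

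**Figure D2:**
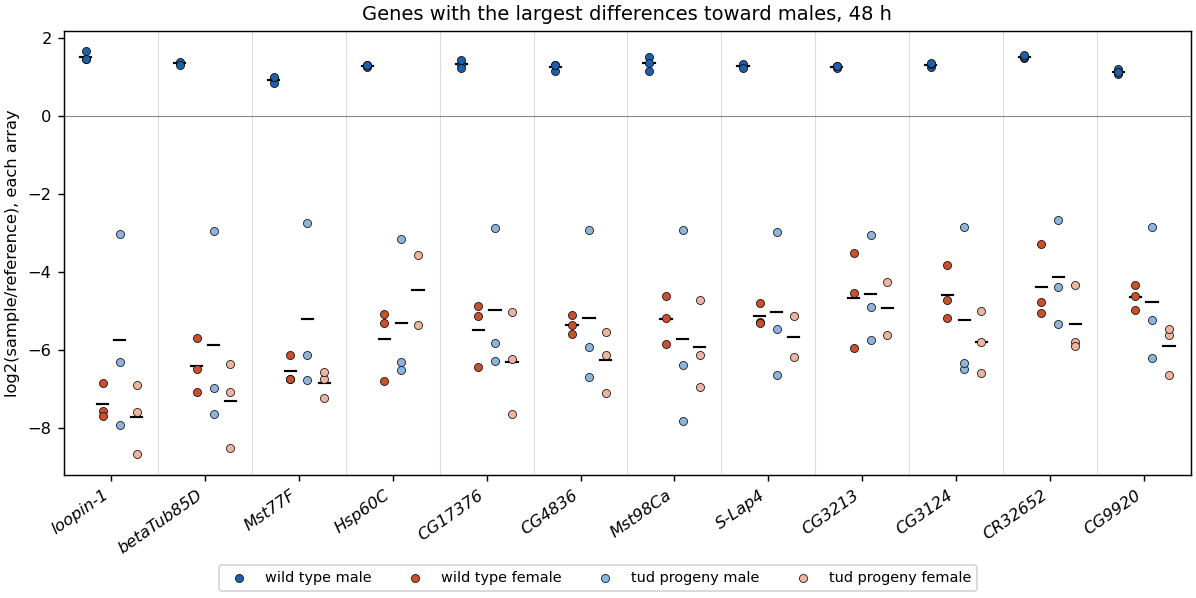
Log2(sample/reference) on each array at 48 hr APF (points) and group means (bars) for the 12 named genes with the largest differences toward males among those with values on all 6 wild type arrays and no overlap, for males and females of wild type and of tud progeny. Wild type males lie near 1 to 1.6 for every gene; all other arrays lie below -2.5, with tud progeny male replicate 1 the highest point of its group for each gene.

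Regulators that act in spermatocytes, where they could be named, were also higher in males. Of 8 tested probes for transcription and translation control in spermatocytes, 7 were higher and 1 did not pass, with a median difference of 2.42. All 10 probes of the list were named only through the male germline list, where 64% of tested probes were higher and 0% lower. The count is therefore not evidence about these regulators as a group. orb2 (DAC008M16), a translational regulator of the CPEB family, had 0.29, 0.39 and 0.32 in males and -2.32, -1.95 and -2.07 in females. It was higher in males by 2.44 ± 0.22 (SE, limma adjusted p = 3.99e-11). boule (DAC026G04), required for entry into male meiosis, was at 0.74, 1.02 and 0.78 in males and at -1.29, -1.36 and -1.21 in females, a difference of 2.13 ± 0.38 (SE, limma adjusted p = 8.60e-05). arrest, an RNA-binding translational repressor of both germlines, was higher in males by 2.51 ± 0.36 (SE), and exuperantia, which acts in RNA localization in oocytes and in spermatogenesis, by 4.77 ± 0.83 (SE) for its stronger probe.

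Testis-expressed copies of mitochondrial proteins rose in males too. All 7 tested probes were higher, with a median of 2.40 and a range of 1.11 to 7.01, and 7 of the list's 8 probes were named only through the male germline list. Hsp60C (DAC017M13), a mitochondrial chaperonin used in spermatogenesis, stood at 1.24, 1.31 and 1.30 in males and at -6.80, -5.31 and -5.09 in females, a difference of 7.01 ± 0.74 (SE, limma adjusted p = 1.14e-08). Cytochrome c distal (Cyt-c-d), needed for caspase activation as spermatids separate, was at 1.18, 0.90 and 1.05 in males and at -2.47, -1.13 and -2.33 in females, a difference of 3.02 ± 0.58 (SE). tomboy20, a paralogue of the mitochondrial import receptor Tom20, was higher in males by 2.99 ± 0.58 (SE), Hsp60B by 2.40 ± 0.57 and tomboy40 by 1.53 ± 0.34.

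The general proteasome showed a weaker difference. Of 27 tested probes of its core and lid, 7 were higher in males, 1 was lower and 19 did not pass. Over all probes tested 8.37% were higher and 14.7% lower. The median of 0.07 lay above the -0.27 of all probes. Prosbeta3 had 0.04, 0.03 and 0.12 in males and -0.51, -0.58 and -0.64 in females, and was higher in males by 0.64 ± 0.20 (SE, limma adjusted p = 0.0259). Prosalpha7 was higher by 0.51 ± 0.17 and Rpn6 by 0.50 ± 0.16 (SE). The lower member, named after its value was seen, was Rpn12 at -0.60. Of 2 testis paralogues of proteasome subunits, Rpt6R was higher in males by 1.67 ± 0.63 (SE, limma adjusted p = 0.0788), and Prosbeta5R1 stood at 1.08 ± 0.50 (SE, limma adjusted p = 0.154). Both were named only through the male germline list. The call for Rpt6R was lost without male replicate 2 (adjusted p = 0.152), female replicate 2 (0.177) or female replicate 3 (0.220).

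Ubi-p63E (DAC006H15), a polyubiquitin gene, had 0.96, 1.22 and 1.00 in males and -1.42, -0.75 and -1.05 in females. It was higher in males by 2.14 ± 0.20 (SE, limma adjusted p = 3.99e-11). Of the 14 heat shock protein probes of the list, 5 were named only through the male germline list. Of the 13 tested, 4 were higher in males and 0 lower, with a median of 0.08. Beside Hsp60C and Hsp60B these were Hsc70-1, at 1.82 ± 0.51 (SE), and Hsp83, a cytosolic chaperone, at 0.75 ± 0.29 (SE, limma adjusted p = 0.0909). The call for Hsp83 was lost without male replicate 2 (adjusted p = 0.272), female replicate 1 (0.186) or female replicate 3 (0.310). A difference toward males with means of at least -2 in both sexes was largest, among named genes with non-overlapping values on all 6 arrays, for CG2955 (3.06 ± 0.90), CG8136 (3.03 ± 0.60), Cyt-c-d and CG4691 (3.01 ± 0.72), tomboy20 and CG5217 (2.92 ± 0.60, SE). The limit was on the group mean, and single female values could still lie under -2, as for Cyt-c-d above.

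**Figure D3:**
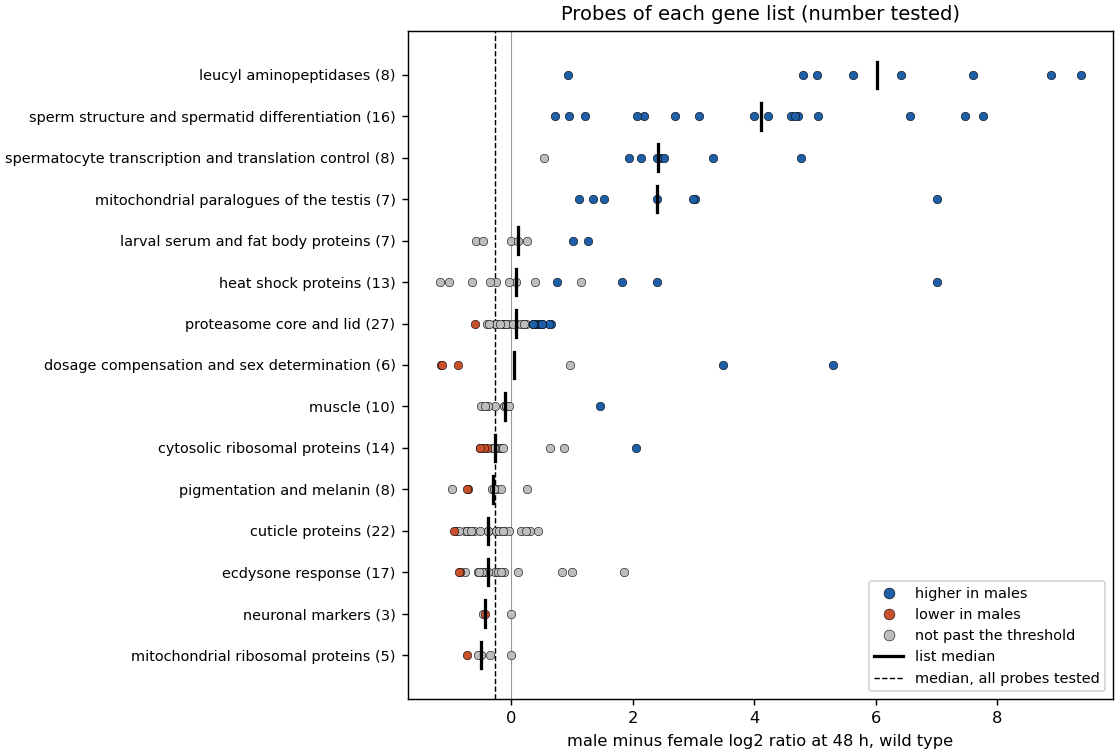
Male minus female log2 ratio at 48 hr APF of each tested probe (points) in 15 gene lists, with the list median (solid bar) and the median of all probes tested, -0.27 (dashed line). The 4 lists of sperm and testis genes lie to the right, with medians between 2.40 and 6.02, and the medians of the other lists lie between -0.50 and 0.11.

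Genes lower in males differed by small amounts. Lysozyme S (LysS, DAC021M14), a gut lysozyme, stood at 0.19, -0.56 and -0.06 in males and at 1.99, 1.00 and 1.14 in females. It was lower in males, at -1.52 ± 0.33 (SE, limma adjusted p = 0.0014). Its relative Lysozyme X (LysX, DAC037L17) had 0.92, 0.23 and 0.75 in males and 3.01, 1.34 and 1.81 in females, a difference of -1.42 ± 0.50 (SE, limma adjusted p = 0.0557). The call for LysX was lost without male replicate 2 (adjusted p = 0.170) or female replicate 1 (0.263). Neither gene overlapped between the sexes, and as close paralogues they may share signal.

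Among named genes lower in males with values on all 6 arrays and no overlap, the largest difference was that of Osiris 11 (Osi11, DAC034J07), at 3.83, 2.80 and 4.05 in males and 5.79, 4.91 and 5.09 in females, or -1.70 ± 0.69 (SE, limma adjusted p = 0.135). This call was lost when any 1 of the 6 arrays was left out, with adjusted p between 0.171 and 0.311. In tud progeny its difference was of the other sign, 1.55, and did not pass (limma adjusted p = 0.515), or 1.79 (0.701) without tud progeny male replicate 1. CG13027, named after its value was seen, had the larger difference of -2.87 (limma adjusted p = 0.0305), with no value on female replicate 3. CG4860 had 0.80, -1.61 and 0.80 in males and 1.10, 1.28 and 1.72 in females. Its difference of -1.37 ± 0.40 (SE) rested on male replicate 2, without which it was -0.56 (adjusted p = 0.301). CG4151 was low in both sexes, at -6.89, -7.42 and -6.97 in males and -5.89, -5.87 and -6.07 in females, and its call was lost without any 1 of the arrays (adjusted p between 0.190 and 0.293).

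Other genes lower in males kept their call more often. CG1441 was at -2.07, -1.84 and -1.78 in males and at 0.03, -0.75 and -0.91 in females, a difference of -1.35 ± 0.37 (SE, limma adjusted p = 0.014). prickle, a planar cell polarity gene, had 0.62, 0.63 and 0.55 in males and 1.44, 2.14 and 1.44 in females, a difference of -1.07 ± 0.29 (SE, limma adjusted p = 0.0144). htk (DAC015B01) was lower in males, at -1.05 ± 0.23, arouser at -1.09 ± 0.24 and the gene called Pray For Elves at -1.02 ± 0.25 (SE). These calls held without each of the 6 arrays. IP3K2, an inositol phosphate kinase, was lower, at -1.21 ± 0.37 (SE) and lost its call without female replicate 2 (adjusted p = 0.157). alpha-Man-Ia, a mannosidase of glycoprotein processing, stood at -0.99 ± 0.35 (SE), lost without male replicate 3 (0.164) or female replicate 1 (0.185).

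With the further limit of means of at least -2 in both sexes, the next genes lower in males were polychaetoid, a junction protein gene, at -0.99 ± 0.40, CG5254 at -0.97 ± 0.19, the sulfate donor synthetase Papss at -0.95 ± 0.31, obst-A at -0.94 ± 0.34, CG17754 at -0.93 ± 0.29 and CG1637 at -0.92 ± 0.21 (SE). CG5254 had -0.53, -0.34 and -0.49 in males and 0.39, 0.78 and 0.39 in females, with the smallest adjusted p of these (limma, 0.000345). The calls for CG5254 and CG1637 held without each of the arrays. The call for polychaetoid was lost without male replicate 1 (adjusted p = 0.301), male replicate 3 (0.201) or female replicate 3 (0.294), that for Papss without female replicate 1 (0.175), that for CG17754 without female replicate 2 (0.182) and that for obst-A without male replicate 1 (0.186) or female replicate 2 (0.185).

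**Figure D4:**
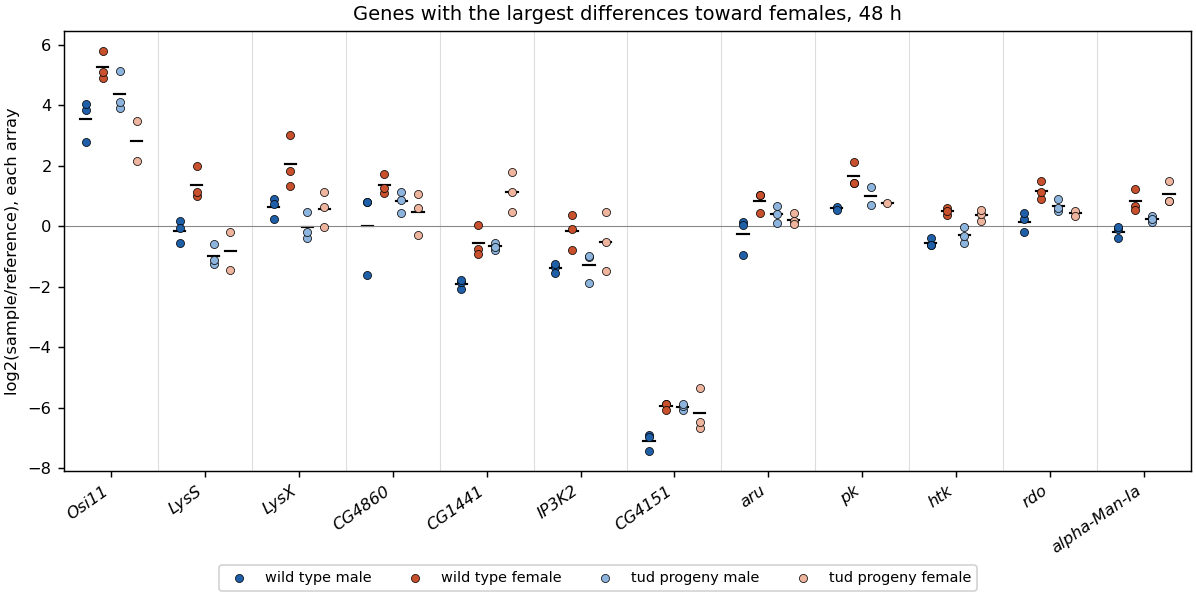
Log2(sample/reference) on each array at 48 hr APF (points) and group means (bars) for the 12 named genes with the largest differences toward females among those with values on all 6 wild type arrays and no overlap, for males and females of wild type and of tud progeny. Wild type females lie above wild type males for every gene, by 0.99 to 1.70 on the log2 scale, and CG4860 has 1 male array, at -1.61, far below the other two.

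Lists of somatic genes held up to 27 tested probes each, and their counts stand against 8.37% higher and 14.7% lower in males over all probes. Of 17 ecdysone response probes, 0 were higher and 2 lower in males, with a median of -0.39. Both were probes of ImpL2, which codes for a secreted protein that binds insulin-like peptides. The first (DAC024I20) had -0.37, 0.11 and -0.17 in males and 0.78, 1.01 and 0.30 in females, a difference of -0.84 ± 0.25 (SE, limma adjusted p = 0.0205), and the second gave -0.86 ± 0.27 (SE, limma adjusted p = 0.0269), lost without female replicate 2 (0.227). The probes of the transcription factor genes broad, Eip93F and Sox14 that were tested did not pass.

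Of 8 pigmentation probes, 0 were higher and 2 lower, with a median of -0.30. scarlet, an eye pigment transporter, stood at 0.76, 0.59 and 0.39 in males and at 1.60, 1.15 and 1.21 in females, a difference of -0.74 ± 0.24 (SE, limma adjusted p = 0.0486), lost without male replicate 3 (0.163) or female replicate 1 (0.158). abd-A, the homeotic gene of the middle abdomen, had -0.15, -0.06 and -0.07 in males and 0.46, 0.83 and 0.59 in females, a difference of -0.72 ± 0.31 (SE, limma adjusted p = 0.121). The abd-A values did not overlap, but the call was lost without any 1 of the arrays except female replicate 1 (adjusted p between 0.182 and 0.280) and when arrays were centred (0.252).

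Of 7 larval serum and fat body probes, 2 were higher in males and 0 lower, with a median of 0.11. Fbp2 had -0.91, -0.50 and -0.92 in males and -1.998, -1.72 and -2.40 in females, a difference of 1.26 ± 0.32 (SE, limma adjusted p = 0.00635). Fbp1, a receptor for larval serum protein, was at -1.37, -0.99 and -0.85 in males and at -2.55, -1.91 and -1.81 in females, a difference of 1.02 ± 0.34 (SE, limma adjusted p = 0.0436), lost without female replicate 1 (0.175). Of 10 muscle probes, 3 of them named only through the male germline list, 1 was higher in males and 0 lower. Their median was -0.11. The higher probe was Act87E at 1.45 ± 0.31 (SE, limma adjusted p = 0.00158), one of several near-identical actin genes.

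Of 22 cuticle probes, 0 were higher and 1, obst-A, was lower in males, with a median of -0.39. Cytosolic ribosomal proteins had 1 probe higher and 4 lower of 14, with a median of -0.27, equal to that of all probes. Of the 15 probes of that list, 2 were named only through the male germline list. RpS19b, a paralogue of RpS19a, was higher in males by 2.04 ± 0.46 (SE), and RpL6, RpS15Ab, RpS20 and RpL27, the last named after its value was seen, were lower, at between -0.40 and -0.52. None of these 4 passed when arrays were centred. With single arrays left out, RpL6 was lost without male replicate 3 (adjusted p = 0.161), RpS15Ab without female replicate 1 (0.153), and RpS20 without male replicate 2 (0.531), female replicate 1 (0.246), female replicate 2 (0.193) or female replicate 3 (0.200). Of 5 mitochondrial ribosomal protein probes, mRpL49 was lower at -0.73 ± 0.25 (SE), and of 3 neuronal probes Csp, measured on 2 male arrays, was lower at -0.44 ± 0.20 (SE); neither passed after centring (adjusted p = 0.187 and 0.386), and Csp was also lost without male replicate 1 (0.180), female replicate 2 (0.266) or female replicate 3 (0.260) and could not be tested without male replicate 2 or 3, which left too few values. Neither of 2 probes for yolk uptake and eggshell (yolkless at -0.60 ± 0.37 and Cp7Fb at -0.42 ± 0.23, SE), neither of 2 for DNA replication and the cell cycle, nor the 1 hemocyte probe passed. No probe of the accessory gland list was named.

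A further set of probes had a value in one sex only and could not be tested. There were 209 probes with a value on all 3 male arrays and none on a female array, and 0 with the reverse. With at least 2 values in one sex and none in the other, 575 were found in males and 30 in females. The median log2 ratio of the 209 in males was 0.67. The male arrays held more values in all, and the part of this in the counts was not tested. The 27 with a name, of which those given here were picked after their values were seen, held t-cup, c-cup, Tssk, a testis kinase, scpr-A and bb8, and also Golgin84, tricornered, pdm3, Bhmt and RagA-B. scpr-A stood at 1.29, 1.45 and 1.53 in males. On the tud progeny male arrays 75 of the 209 had no value either, among them scpr-A, while Tssk, pdm3, Bhmt and RagA-B had a value on all 3. The share of all probes without a value on those arrays was not counted, so 75 of 209 is a description only. The count for males was 446 without male replicate 2 and 664 without female replicate 3, within a range of 245 to 664 over the 6 arrays.

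The sex difference at 48 hr was next set against that of tud progeny, which differ from wild type in the germline and in genetic background together. In tud progeny, 33 of 4997 probes (0.66%) differed between males and females, 4 higher and 29 lower in males. Of the 394 probes higher in wild type males that could be tested in tud progeny, 2 were higher in tud progeny males, and their median difference was -0.03. Of 688 probes lower in wild type males, 3 were lower in tud progeny males, with a median of -0.04. Without tud progeny male replicate 1, 15 of 4476 probes differed in tud progeny, 2 higher and 13 lower; these were 2 of 345 and 3 of 651 of the probes called in wild type, with medians of -0.14 and -0.05. The wild type difference minus the tud progeny difference passed for 536 of 4443 probes (12.1%), 314 positive (7.07%) and 222 negative (5%), with 843 at an unadjusted p under 0.05. Without tud progeny male replicate 1 it passed for 351 of 4088 probes, 239 positive and 112 negative. It passed for 285 without wild type female replicate 3 and for 343 without tud progeny female replicate 3, and the negative count ranged between 98 and 310 when single arrays were left out.

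The levels behind these counts differed between the directions. Over the 111 probes higher in wild type males whose female mean was under -2, the median level was 1.08, 1.03 and 1.06 on the wild type male arrays and -3.42, -2.83 and -3.46 on the wild type female arrays. It was -2.69, -4.45 and -3.91 on the tud progeny male arrays and -3.97, -3.55 and -3.21 on the tud progeny female arrays. Wild type males thus stood apart from the other 3 groups. Over the 807 probes lower in wild type males, the median level was -0.13, -0.11 and -0.15 on the wild type male arrays and 0.41, 0.54 and 0.46 on the wild type female arrays. It was 0.32, 0.18 and 0.29 on the tud progeny male arrays and 0.30, 0.30 and 0.28 on the tud progeny female arrays. Here too tud progeny males lay nearer to the females than to wild type males. Over all 5484 probes tested, the median level was -0.04, -0.01 and -0.03 on the wild type male arrays. It was 0.11, 0.15 and 0.09 on the wild type female arrays. The tud progeny arrays stood at 0.09, -0.0009 and 0.09 in males and at 0.07, 0.13 and 0.09 in females. The part of this offset in the levels of the 807 probes was not tested. The 111 and the 807 probes were chosen by the wild type arrays, whose levels are given as a description.

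Single testis genes followed this. betaTub85D had -2.96, -6.99 and -7.66 in tud progeny males and -8.51, -7.08 and -6.35 in tud progeny females. The wild type difference exceeded that of tud progeny by 6.31 ± 1.33 (SE, limma adjusted p = 0.00138), or by 7.77 without tud progeny male replicate 1. All 15 sperm structure probes tested passed, as did 7 of 8 for spermatocyte control, 7 of 8 leucyl aminopeptidases and 6 of 6 mitochondrial paralogues, each positive. Without tud progeny male replicate 1 the counts were 14 of 14, 6 of 6, 7 of 7 and 4 of 4. The study drew its male germline list from this contrast, so these counts are not independent evidence of it.

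Pof, at -2.05, -3.63 and -3.36 in tud progeny males and -3.70, -3.29 and -3.14 in tud progeny females, also lost its difference there (0.36), and the wild type difference exceeded it by 3.13 ± 0.40 (SE, limma adjusted p = 6.25e-07), or by 3.61 without tud progeny male replicate 1. roX1 did the opposite. Its difference of 7.86 in tud progeny was larger than in wild type, and the contrast was -2.56 ± 0.49 (SE, limma adjusted p = 0.000365), or -2.43 without tud progeny male replicate 1. The gap lay in females: the wild type females exceeded tud progeny females by 2.46 for roX1 (limma adjusted p = 9.66e-06) and wild type males differed from tud progeny males by -0.10 (0.878), or by 0.035 (0.970) without that array. The share of probes past the threshold was 6.69% between wild type and tud progeny females and 29.4% between wild type and tud progeny males, or 23.6% without that array. All female roX1 values were low, so the size is not firm.

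Among somatic lists, the contrast with tud progeny passed for 0 of 17 ecdysone response, 0 of 8 pigmentation, 0 of 21 cuticle, 0 of 27 proteasome, 0 of 4 mitochondrial ribosomal and 0 of 3 neuronal probes. It passed for 3 of 7 larval serum and fat body probes (2 positive, 1 negative), 1 of 10 muscle probes (positive), 2 of 13 cytosolic ribosomal probes (1 positive, 1 negative) and 4 of 13 heat shock probes (all positive), the last list including the testis-expressed Hsp60C and Hsp60B. The muscle, cytosolic ribosomal and heat shock lists held 3, 2 and 5 probes named only through the male germline list. Over all 4443 probes 12.1% passed. Without tud progeny male replicate 1 the lists at 0 stayed at 0, and the others had 2 of 7 (1 positive, 1 negative), 0 of 10, 1 of 11 (negative) and 3 of 12 (positive). The Sxl probe that could be tested stood at -0.88 in wild type pupae and at -0.35 in tud progeny. Its contrast of -0.53 (limma adjusted p = 0.509) did not pass, nor did it without that array (-0.56, adjusted p = 0.549). abd-A stood at -0.72 in wild type pupae and at -0.54 in tud progeny. Its contrast was -0.18 (limma adjusted p = 0.874), or -0.017 (0.992) without that array. A p that misses the threshold does not show that the differences were alike.

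CG1441 was among the few lower in males in both genotypes, at -1.35 in wild type and -1.80 in tud progeny (limma adjusted p = 0.0206, or 0.0507 without tud progeny male replicate 1), where it had -0.54, -0.78 and -0.69 in males and 0.46, 1.14 and 1.79 in females. TppII, a tripeptidyl peptidase, and CG1637 had negative contrasts of -1.57 (limma adjusted p = 0.00362) and -1.40 (0.00523), or -1.52 (0.00988) and -1.48 (0.00528) without that array. TppII had -0.17, -0.18 and -0.49 in tud progeny males and -1.98, -0.15 and -1.58 in tud progeny females. Its low values thus lay on 2 of the 3 tud progeny female arrays, and its own wild type call, -0.62 (adjusted p = 0.109), was lost without male replicate 1 (0.289), male replicate 2 (0.236), female replicate 2 (0.209) or female replicate 3 (0.208).

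The genes called at 48 hr were then followed through metamorphosis in wild type. Of the 459 probes higher in males, the share also higher in males was 60.4% at 0 hr, 87.4% at 24 hr, 84.1% at 72 hr and 83.7% at 96 hr, of the 390 to 429 that could be tested. The median difference was 1.05, 1.92, 1.68 and 1.95 at these times. Of all probes tested at each time, 7.74%, 12.8%, 10.2% and 20.6% were higher in males. Of the 807 lower in males, 22.1%, 57.7%, 45.6% and 42.1% were also lower at 0, 24, 72 and 96 hr, against 13.3%, 22.7%, 26.1% and 21.3% of all probes. The values at each time come from arrays of their own, but the calls share the spread of each probe over all 60 arrays. The calls at different times are therefore not fully independent.

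betaTub85D was higher in males by 7.14, 8.19, 7.76, 7.20 and 6.81 at 0, 24, 48, 72 and 96 hr. roX1 was higher by 3.70, 5.62, 5.30, 4.39 and 6.06. orb2 had its largest difference, 3.85, at 24 hr. Ubi-p63E, in contrast, had its largest at 48 hr, with 0.27, 1.35, 2.14, 1.70 and 1.22.

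The 48 hr difference minus the mean of the other 4 passed for 5 of 3791 probes (0.132%), with 161 at an unadjusted p under 0.05. They were Ubi-p63E at 1.00 ± 0.22 (SE, limma adjusted p = 0.0597), LysS at -1.74 ± 0.37 (SE, limma adjusted p = 0.0597) and 3 probes with no name: DAC038P10 at -1.66, DAC021D11 at 1.31 and DAC011E01 at 1.06. The LysS differences were 0.11, -0.48, -1.52, 0.29 and 0.96 in order of time, lower in males past the threshold at 48 hr and higher past it at 96 hr (limma adjusted p = 0.0272). DAC038P10 had -0.01, -1.72 and -1.94 in males and 0.09, 1.32 and 0.88 in females, so that male replicate 1 lay close to the lowest female. None of the 5 passed without male replicate 2, and none without male replicate 3, of the 48 hr arrays. The count was 2 without female replicate 1 of 0 hr, 3 without male replicate 1 or female replicate 1 of 48 hr, 10 without female replicate 2 of 48 hr or female replicate 1 of 72 hr, 13 without male replicate 2 of 24 hr and 12 without male replicate 3 of 24 hr.

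**Figure D5:**
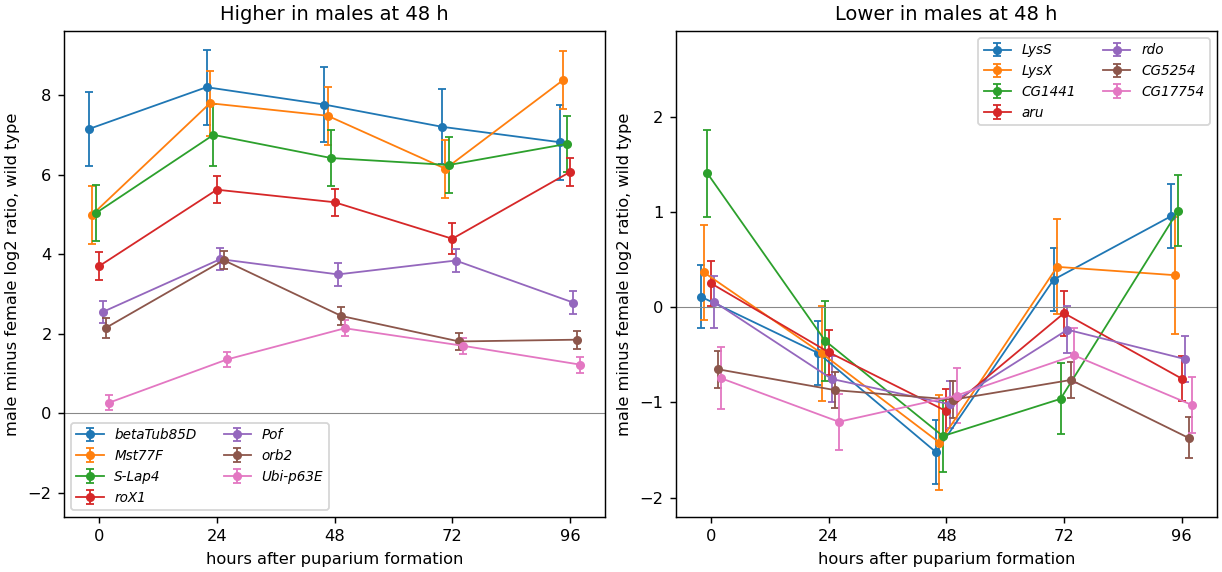
Male minus female log2 ratio in wild type against hours after puparium formation for 7 genes higher (left) and 7 genes lower (right) in males at 48 hr; points are fitted differences and bars are standard errors. The genes on the left stay above 0 at all 5 times; on the right LysS is at -1.52 at 48 hr and above 0 at 72 and 96 hr, while CG5254 and CG17754 are below 0 throughout.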

How the data were processed

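RNA of 60 samples was hybridized to 2-colour oligonucleotide arrays. Deposited values were log2(sample/reference); the authors removed spots with fewer than 75% of pixels above background in both channels and applied global loess within every array (limma). The table was used as deposited. The fit was lmFit and eBayes of limma 3.58.1 (R 4.3.3) with 20 group means over 60 arrays, with 2.82 prior degrees of freedom, over probes with at least 2 values in each group compared. Benjamini-Hochberg adjustment covered all probes tested; an exact permutation test of 3 against 3 cannot go below p = 0.1. Control elements were left out. Alternatives were other samples in the fit, scaling, filters, weights, thresholds, replicate blocks and single arrays left out. The fit was tested on simulated data. Named genes were roX1, roX2, Sxl and tra; among those past the threshold with all values and no overlap, the 12 largest differences in each direction, and the next 6 with both means at least -2; the 4 smallest adjusted p per list; and the 4 largest in each direction of the other contrasts. The members, lists and rules were chosen with earlier results of these data known. Symbols were updated through a RefSeq gene table. Precision is limited by the number of arrays; no sequences or coordinates of the probes were used here.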

Additional observations from a re-analysis of the deposited data

Results flagged for a closer look

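The sex difference at 48 hr differed between wild type and tud progeny for 536 probes, by a test of the difference itself. The values below are the wild type minus the tud progeny difference (log2, limma adjusted p under 0.15), with all arrays; without tud progeny male replicate 1, which stood apart, the count was 351. Among sperm structure genes it was 6.31 for betaTub85D, 5.84 for Mst77F, 6.34 for Mst98Ca, 4.87 for Mst87F, 4.63 for Mst84Db and 1.90 for Sdic2. Among leucyl aminopeptidases it was 7.37 for S-Lap1, 6.92 for loopin-1, 5.78 for S-Lap4 and 5.11 for S-Lap2. Among spermatocyte regulators it was 5.07 for exuperantia, 2.41 for arrest, 2.08 for orb2 and 2.29 for boule, the last with no value without that array.

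Among mitochondrial, proteasome and chaperone genes it was 7.88 for Hsp60C, 3.13 for Cyt-c-d, 3.79 for tomboy20, 1.53 for tomboy40, 2.65 for Hsp60B, 2.57 for Rpt6R, 1.92 for Ubi-p63E and 1.77 for Hsc70-1. For Rpt6R the larger part lay in females. Wild type minus tud progeny was -1.90 in females (limma adjusted p = 0.108) and 0.66 in males (0.550). Hsc70-1 was no longer past the threshold without tud progeny male replicate 1 (adjusted p = 0.156), and tomboy20, tomboy40, Rpt6R and CG4691 could not be tested. Among genes with little known function it was 5.49 for CG17376, 5.53 for CG4836, 5.57 for CG3213, 5.34 for CG3124, 4.69 for CR32652, 4.63 for CG9920, 3.40 for CG2955 and 4.22 for CG4691. Among other genes it was 3.13 for Pof, 1.24 for Act87E and 1.45 for Fbp2. Act87E was lost without tud progeny male replicate 1 (adjusted p = 0.175). For Fbp2 the gap lay in females, where wild type minus tud progeny was -1.29 (limma adjusted p = 0.0192), against 0.16 in males (0.769).

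Negative values, where the male minus female difference was lower in wild type than in tud progeny, were -2.56 for roX1, -0.53 for RpL6, -0.95 for Pepck1, -1.57 for TppII, -1.56 for CG34350, -1.40 for CG1637, -0.78 for CG5254, -1.26 for Pray For Elves, -1.26 for arouser, -1.72 for CG4860, -1.36 for LysS and -3.25 for Osi11. Without tud progeny male replicate 1, CG34350 (adjusted p = 0.191) and CG5254 (0.234) were lost.

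The 48 hr difference differed from the mean of the other time points for 5 probes, again by a test of the difference, at 1.00 for Ubi-p63E and -1.74 for LysS; 0 passed without male replicate 2 or male replicate 3 of 48 hr. A signal outside the probes tested was the 209 probes with a value on all 3 male arrays and none on the female arrays.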

How the results depend on the processing

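Of 73 named probes past the threshold, 0 turned sign under the alternatives; of 1651 values of named probes, 1482 kept direction and side of the threshold, 87 lost it and 72 gained it. The causes of the changes below were not tested. For the sex difference at 48 hr the count of 1266 was 2227 with only the 6 arrays fitted (1612 lower in males), 801 after centring (290 lower), 2083 with quantile normalization (1416 lower), 2827 with array weights, whose estimation stopped short of convergence (710 higher, 2117 lower), 2601 with q values in the manner of Storey (1946 lower) and 660 at an adjusted p under 0.05 (311 lower). With 1 array left out it was 722 to 991 (278 to 390 higher, 400 to 649 lower). For the contrast with tud progeny the count of 536 was 887 with quantile normalization (462 negative), 275 with all 3 values in each group (144 positive, 131 negative), 1192 with weights (489 positive, 703 negative) and 272 at 0.05 (55 negative); negative counts were 103 after centring and 383 with q values. With 1 array left out it was 285 to 583 (187 to 288 positive, 98 to 310 negative), and it was 624 (346 positive, 278 negative) without tud progeny female replicates 1 and 2, whose labels disagree with their titles. For the contrast with the other times the count of 5 was 12 with only its own arrays (8 positive, 4 negative), 12 after centring (10 positive), 45 with quantile normalization (19 positive, 26 negative), 2 with all 3 values (1 positive, 1 negative), 147 with weights (51 positive, 96 negative) and 1 at 0.05 (0 positive, 1 negative), and 0 to 13 with an array left out (0 to 8 positive, 0 to 5 negative).

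Same-numbered male and female arrays deviated from their group means with correlations of -0.01, 0.22 and 0.37. Differently numbered arrays had correlations between -0.47 and 0.28. These values do not decide whether the numbers pair the samples, and the main fit left the samples unpaired. With the replicate number as a random block the counts were 1360 for the sex difference and 12 for the contrast with the other times (8 positive, 4 negative), and with a fixed replicate block on the 6 arrays alone 1710. roX2, at 0.96, passed with only the 6 arrays and with that fixed block (adjusted p = 0.0675). Centring changed some list counts: 2 proteasome paralogues and 2 cytosolic ribosomal probes were higher, 1 pigmentation probe was lower, and 0 neuronal, proteasome core, cuticle, cytosolic ribosomal or mitochondrial ribosomal probes were lower. As alternatives chosen after seeing the data, single arrays were left out of the testis lists (3 to 8 leucyl aminopeptidases, 13 to 16 sperm structure, 5 to 7 spermatocyte and 6 to 7 mitochondrial probes higher) and of the probes seen in one sex only (245 to 664 in males, 3 to 25 in females), and tud progeny male replicate 1 was left out of the comparisons with tud progeny. Among genes that did not pass, signs turned for white (-0.27 to 0.55 with an array left out), the dopamine transporter DAT (0.12 centred, 0.10 with quantile normalization, -0.18 to 0.10 with an array left out), cdc2c (0.012 centred, -0.22 to 0.084 with an array left out) and one Tm1 probe (-0.45 to 0.049 with an array left out). Depth cannot be given for array spots; values far below 0 are the least precise.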

Other observations

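Between the wild type and tud progeny females at 48 hr, 310 of 4634 probes (6.69%) differed. Named genes with higher values in wild type females included LysS, a gut lysozyme, by 2.20 ± 0.37 (SE, limma adjusted p = 0.000301), Pepck1, an enzyme of glucose synthesis, by 1.78 ± 0.24 (5.20e-06), and TppII by 1.46 ± 0.26 (0.000393). CG1441 was lower in wild type females, at -1.68 ± 0.37 (0.00893) and the proteasome subunit gene Prosalpha1 at -1.28 ± 0.16. These genes were picked out after their values were seen, and the groups differ in genetic background as well as in the germline.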
